A study of Mus musculus with 2 samples.

Results

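The keratin genes are all rows of the gene table whose symbol is Krt followed by a number and, for some, the letter a or b. This gave 53 of 32285 genes, 28 of type I (acidic) and 25 of type II (basic). They were read in 1 single-cell RNA sequencing library from NC-Foxc2-/- mice and 1 from Foxc2fl/fl control mice, of the anterior segment of the eye with the iris taken off. NC-Foxc2-/- mice carry Wnt1-Cre with 2 floxed Foxc2 alleles, and the controls carry the floxed alleles with no Cre, so both groups share the Foxc2 flox/flox genotype. Both are of mixed strain and are labelled 4 weeks old, while the protocol gives 3 to 4 weeks and pools of 4 to 6 mice. Wnt1-Cre acts in the neural crest and its descendants, among them keratocytes, corneal endothelium and meshwork, whereas the epithelium of the ocular surface comes from surface ectoderm. The NC-Foxc2-/- mice used were those with moderate ocular defects. Each condition was 1 pool in 1 library, so no difference between the conditions could be tested. Levels are CPM, the UMIs (counted RNA molecules) of a gene over all UMIs of a class, scaled so that 10000 CPM is 1% of the UMIs, with an exact Poisson interval in brackets where one is given. A ratio divides the NC-Foxc2-/- level by that of the control, and its interval is an exact conditional binomial one. Both kinds of 95% interval hold the error of counting alone and not the spread between mice.

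Keratins form intermediate filaments from pairs of a type I and a type II chain, and the pair in use marks the kind of epithelium. On the ocular surface Krt12 is the keratin of corneal epithelium, and in mice Krt5 is its partner. Krt14 and Krt15 mark basal and limbal cells, where the corneal stem cells lie, while Krt4, Krt13 and Krt19 mark the conjunctiva. Krt8 and Krt18 are the pair of simple, single-layered epithelia, and Krt6a, Krt6b, Krt16 and Krt17 are known to be induced by wounding and stress.

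The 27 type I genes other than Krt18 lie on chromosome 11, and Krt18 lies on chromosome 15 with all 25 type II genes. The start of Krt18 (chr15:102028180-102032027, plus strand, mm10) is 23698 bases from that of Krt8 (chr15:101996698-102004482, minus strand), and the genes point away from each other. Of the 53 members, 37 matched a promoter in the RefSeq table (GRCm38.p6). The TATA box letters TATAAA, searched on both strands from 250 bases before the start to 50 after it, were in 19 of these 37 (51.4%), against 13.6% of 32851 promoters of all genes. A match is a description of letters and not a site. The promoters of the 3 keratins that the results below turn on are shown from 120 bases before the RefSeq start to 10 after it, with TATAAA on either strand in capitals. That of Krt12 (chr11:99422250-99422379, minus strand) holds the letters 29 bases before the start. That of Krt8 (chr15:102004333-102004462, minus strand) holds overlapping matches on both strands at the RefSeq start, and that of Krt18 (chr15:102028096-102028225, plus strand) holds none in the stretch shown. For Krt8 and Krt18 the RefSeq start differs from the gene start given above. The gene start of Krt8, 102004482, lies outside the stretch shown.
Krt12: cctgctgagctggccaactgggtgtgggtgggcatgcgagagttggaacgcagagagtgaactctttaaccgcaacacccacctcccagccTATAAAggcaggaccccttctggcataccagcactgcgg
Krt8: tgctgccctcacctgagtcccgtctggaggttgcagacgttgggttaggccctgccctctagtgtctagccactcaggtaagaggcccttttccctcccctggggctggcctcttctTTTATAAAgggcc
Krt18: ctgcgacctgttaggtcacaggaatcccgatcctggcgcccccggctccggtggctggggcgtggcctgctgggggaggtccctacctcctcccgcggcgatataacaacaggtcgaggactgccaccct

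The libraries kept 10872 NC-Foxc2-/- cells with a median of 6517 UMIs and 10773 control cells with a median of 7663. There were 52 cell barcodes that occurred in both libraries, and they were told apart by library. In total 1653084 UMIs came from keratins. Krt12 held 761748 of them, Krt5 251242, Krt14 238723 and Krt15 124830. Of the 53 members, 22 had at least 100 UMIs and are described here, 26 had 1 to 99, and Krt9, Krt26, Krt35, Krt40 and Krt73 had none. Between 97.4% and 99.6% of the UMIs of Krt12, Krt5, Krt14, Krt15, Krt16, Krt6a, Krt17, Krt6b, Krt4, Krt13, Krt19, Krt7 and Krt75 lay in epithelial cells. Krt78 had 96.7% there, Krt80 89.7%, Krt8 88.5% and Krt23 86.5%. Krt1 had 53.2%, Krt18 31.2%, Krt10 26.6%, Krt20 15% and Krt222 2.25%. Reads of close copies, Krt6a and Krt6b or Krt14, Krt16 and Krt17, may be split between the copies by the counting, so their single values are uncertain.

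Cells were clustered with all keratins left out, and epithelial clusters were named from other markers, so keratin levels did not make the classes. The corneal epithelial-like class, with Slurp1 at 3056 CPM in the NC-Foxc2-/- library and 2885 in the control, had 232 and 1078 cells. Of its other markers, Mal (ratio 0.273), Aqp5 (0.442) and Dsg1a (0.478) were lower by over 2-fold. Tkt (0.725), Aldh3a1 (0.782), Lypd2 (0.787), Clu (0.806) and Dsc2 (0.887) were lower within 2-fold, and Pax6 (1.46) and Ppp1r3c (1.41) were higher within 2-fold. The limbal epithelial-like class, with Gpha2 at 4176 CPM in the NC-Foxc2-/- library and 3279 in the control, had 97 and 298 cells. A sub-cluster with markers of both, called corneal-limbal intermediate, had 119 NC-Foxc2-/- and 132 control cells. The conjunctival epithelial-like class, with the mucin Muc4 at 112 CPM in the NC-Foxc2-/- library and 113 in the control, had 10 and 195 cells. Its other markers went both ways, with ratios of 0.555 for Wfdc2, 0.299 for Muc1, 0.266 for Agr2 and 0.416 for Muc20. Cyp2f2 (1.60) and Aqp3 (1.26) lay above 1. Of the corneal markers, Lypd2 (2.98) and Aldh3a1 (2.21) were higher in these NC-Foxc2-/- cells, and Tkt (0.484) and Pax6 (0.450) were lower. A further 96 NC-Foxc2-/- and 325 control epithelial cells, of which 46.9% and 57.9% were called doublets, were left unnamed and stay out of the comparisons. Of the markers of other cell types, those of keratocytes summed to 44.5 to 71.3 CPM over the 4 NC-Foxc2-/- classes and 18.5 to 25.4 CPM over the 4 control classes. Pericyte markers summed to 139 CPM in NC-Foxc2-/- and 17.5 CPM in control limbal cells. Erythrocyte markers, mostly hemoglobin, summed to 64.7 CPM in NC-Foxc2-/- and 5714 CPM in control intermediate cells, to 83.5 and 2329 CPM in limbal cells, and to 2687 and 1992 CPM in corneal cells. The part of these cells in the results was not tested.

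Each class had its own keratin profile. Krt12, Krt14, Krt15, Krt17, Krt6a, Krt6b, Krt4, Krt13 and Krt19 were each highest in the same class in both libraries, whereas for Krt5, Krt16, Krt7, Krt8 and Krt18 the highest class differed between them. Krt12 (chr11:99415666-99422259) reached 13000 CPM in NC-Foxc2-/- and 23080 CPM in control corneal cells, against 304 and 426 CPM in limbal cells. Krt15, a keratin of basal cells, was highest in conjunctival cells, with 7146 CPM in NC-Foxc2-/- and 14310 CPM in control mice, and lowest in corneal cells. Krt14 was highest in limbal cells, with 5930 CPM in NC-Foxc2-/- and 7424 CPM in control mice. Krt5 lay between 2581 and 4999 CPM over the 4 NC-Foxc2-/- classes and between 2646 and 5649 CPM over the 4 control classes. Keratins together took 2.35% of all UMIs in NC-Foxc2-/- and 3.72% in control corneal cells, 1.41% and 2.08% in limbal cells, 1.68% and 2.07% in intermediate cells, and 3.53% and 4.15% in conjunctival cells. UMIs of type I genes outnumbered those of type II genes 3.35 to 1 in NC-Foxc2-/- and 4.10 to 1 in control corneal cells, and 1.86 to 1 and 2.17 to 1 in conjunctival cells, the lowest of the 4 classes in both libraries.

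**Figure D1:**
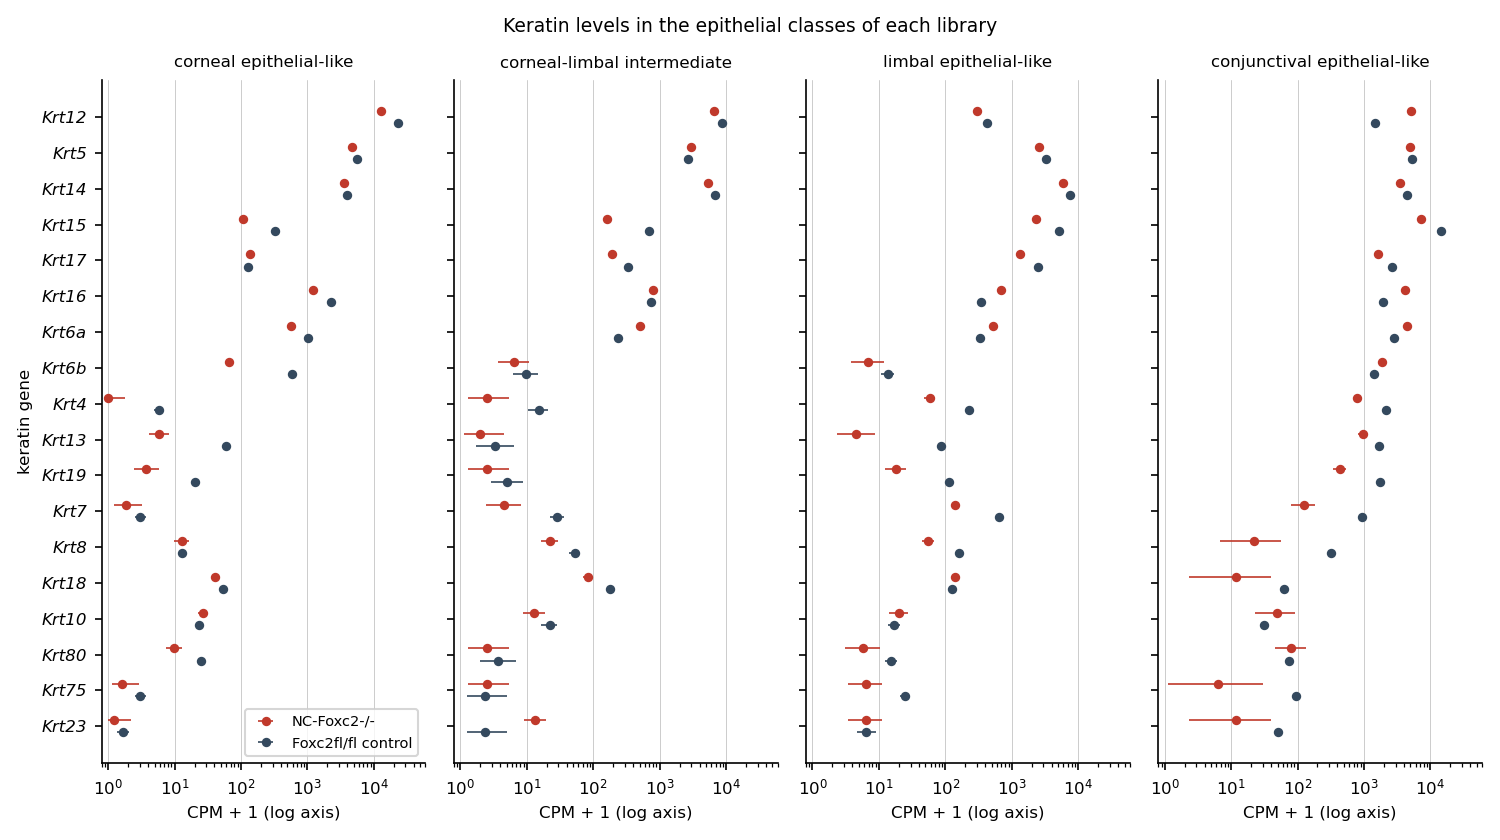
Levels of 18 keratins (CPM + 1, log axis) in 4 epithelial classes, with NC-Foxc2-/- (red, above) and Foxc2fl/fl control (dark, below) as points and exact Poisson 95% intervals as lines. Krt12 leads in corneal cells at 13000 and 23080 CPM, and Krt15 leads in conjunctival cells at 7146 and 14310 CPM.

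In corneal epithelial-like cells most keratins were lower in the NC-Foxc2-/- library. Of 19 members with at least 50 UMIs in the class, 10 were lower by 2-fold or more and 0 were higher. Over all 10013 genes of the class 3.89% were lower and 3.04% higher by this rule of size, which is not a test. The median ratio of these members was 0.428, and that of all genes was 1.001. Krt12, at 13000 CPM in NC-Foxc2-/- and 23080 CPM in control cells, had a ratio of 0.563 [0.558–0.568], which is within 2-fold. Krt5, its partner, had 4735 CPM in NC-Foxc2-/- and 5649 CPM in control cells, a ratio of 0.838. Krt14 had 3546 CPM in NC-Foxc2-/- and 4018 CPM in control cells, a ratio of 0.882. Both basal keratins thus lay closer to 1 than Krt12 did.

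The largest differences in corneal cells were in keratins of superficial, stress and conjunctival type. Krt6b had 66.1 CPM in NC-Foxc2-/- and 586 CPM in control cells, a ratio of 0.113 [0.100–0.126]. Krt13 had 4.92 CPM in NC-Foxc2-/- and 58.8 CPM in control cells. Krt19, the short type I keratin, had 2.78 CPM in NC-Foxc2-/- and 19.4 CPM in control cells. Krt4, the partner of Krt13 in mucosal epithelia, had no UMI in NC-Foxc2-/- cells and 4.80 CPM in control cells, a ratio of at most 0.134 against a floor of 3 UMIs. Krt15 had 108 CPM in NC-Foxc2-/- and 325 CPM in control cells, a ratio of 0.333. Krt80 (ratio 0.373), Krt75 (0.31), Krt78 (0.148), Krt1 (0.428) and Krt7 (0.421) were also lower by over 2-fold, each at under 25 CPM in both libraries, and the interval of Krt7, on 4 and 50 UMIs, ran past 1 [0.110–1.15]. The stress keratins Krt16, with 1197 CPM in NC-Foxc2-/- and 2238 CPM in control cells, and Krt6a, with 570 and 1011 CPM, were within 2-fold at ratios of 0.535 and 0.564. Krt8 did not differ beyond counting error, with 11.8 CPM in both libraries and a ratio of 0.995 [0.732–1.33].

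The make-up of the corneal class also differed between the libraries. It held 6 sub-clusters, named here by their leading gene. The Ly6g6c sub-cluster had 5 NC-Foxc2-/- and 184 control cells, and the Spink7 sub-cluster had 2 and 59 cells. Krt6b was highest in the Ly6g6c cells, with 1038 CPM in the 5 NC-Foxc2-/- and 2295 CPM in the control cells. These control cells held 12792 of the 14423 Krt6b UMIs, 1371 of the 1445 Krt13 UMIs and 6429 of the 7987 Krt15 UMIs of the control class. With these 2 sub-clusters left out, 1 keratin was lower by 2-fold or more instead of 10. With NC-Foxc2-/- sub-clusters weighted by their share of UMIs in the control, 5 were. Without the 2 sub-clusters Krt13 had a ratio of 1.15 [0.669–1.88] and Krt15 a ratio of 1.31 [1.18–1.45], both on the other side of 1. In the weighted sums the same held for Krt80 (1.49) and Krt75 (1.41). Both alternatives were chosen after the data were seen.

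The lower level of Krt12 was seen in each of the 6 corneal sub-clusters. In the Uap1 sub-cluster, with 75 NC-Foxc2-/- and 290 control cells, it had 10160 CPM in NC-Foxc2-/- and 18530 CPM in control cells, a ratio of 0.549 [0.539–0.558]. In the Fos sub-cluster, with 77 and 190 cells, it had 19370 and 26220 CPM, a ratio of 0.739. In the Mmp13 sub-cluster, with 38 and 217 cells, it had 8826 and 16370 CPM, a ratio of 0.539. The dividing cells of the Ube2c sub-cluster (35 and 138 cells) had a ratio of 0.597, and the Ly6g6c and Spink7 sub-clusters, with few NC-Foxc2-/- cells, had 0.793 and 0.497. Krt12 had a ratio of 0.651 without the last 2 sub-clusters and 0.664 in the weighted sums. Krt14 was lower in 5 of the 6 sub-clusters, with 3428 CPM in NC-Foxc2-/- and 5653 CPM in control Uap1 cells, and higher in the 5 Ly6g6c cells, with 2435 CPM against 1202 CPM in control cells. Krt15 went in both directions, at a ratio of 0.289 in Uap1, 2.92 in Mmp13 and 2.82 in Ube2c cells. Krt6a, which was 0.564 over the class, lay at 0.996 in Uap1, 1.07 in Fos, 1.34 in Mmp13 and 1.69 in Ube2c cells.

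**Figure D2:**
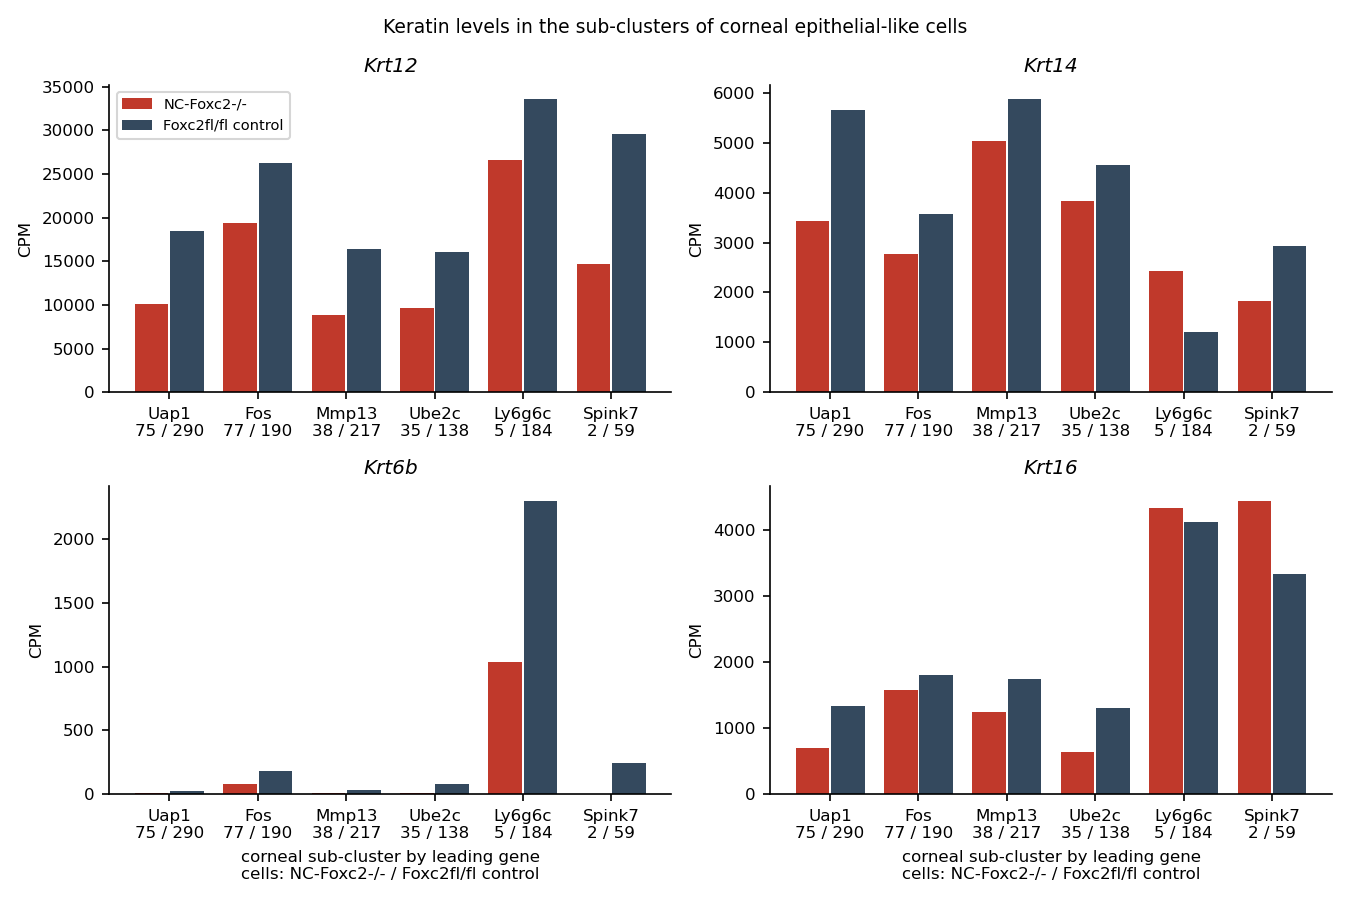
CPM of Krt12, Krt14, Krt6b and Krt16 in the 6 sub-clusters of corneal epithelial-like cells, with NC-Foxc2-/- bars (red) left of control bars (dark) and the cells of each library under the leading gene. Each bar is 1 summed library with no error bar, and Krt12 is lower in NC-Foxc2-/- in all 6 sub-clusters, while Krt6b is mainly in the Ly6g6c sub-cluster.

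In limbal epithelial-like cells the basal keratin Krt15 and the simple keratins Krt7, Krt8 and Krt19 were lower in the NC-Foxc2-/- library, and 2 stress keratins were higher by under 2-fold. Of 17 members with at least 50 UMIs, 9 were lower by 2-fold or more and 0 were higher, against 8.61% of 7585 genes lower and 2.25% higher. Krt15 had 2290 CPM [2219–2364] in NC-Foxc2-/- and 5107 CPM [5047–5169] in control cells, a ratio of 0.448 [0.434–0.464]. It was detected in 96.9% of NC-Foxc2-/- and 99.7% of control limbal cells, whose median depths were 16053 and 16207 UMIs, and in 72.2% and 93.3% after each cell was thinned to 1000 UMIs. In corneal cells, which are not the class it marks, 5.26% of NC-Foxc2-/- and 8.20% of control cells had it after thinning. Krt14, the other basal type I keratin, had 5930 CPM in NC-Foxc2-/- and 7424 CPM in control cells, a ratio of 0.799. Krt5 likewise had 2581 and 3226 CPM, a ratio of 0.80. Krt17 had 1345 CPM in NC-Foxc2-/- and 2498 CPM in control cells, a ratio of 0.538.

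Of the simple keratins, Krt7 had 140 CPM in NC-Foxc2-/- and 638 CPM in control limbal cells, a ratio of 0.219 [0.191–0.250]. Krt8 had 54.5 CPM in NC-Foxc2-/- and 158 CPM in control cells, a ratio of 0.344 [0.274–0.427]. Krt18, the partner of Krt8, had 137 CPM in NC-Foxc2-/- and 126 CPM in control cells, a ratio of 1.09 [0.932–1.26]. Over the whole class the pair thus did not move together. In the parts described below, Krt8 and Krt18 had ratios of 0.733 and 0.632 in the evenly filled Cxcl2 part. They had 0.059 and 0.944 in the Cxcl10 part, with 6 NC-Foxc2-/- cells, and 0.582 and 2.08 in the Ube2c part. Krt19 had 17.2 CPM in NC-Foxc2-/- and 113 CPM in control cells. The conjunctival pair was low in NC-Foxc2-/- limbal cells too, with Krt4 at 56.9 CPM against 226 CPM in control cells, and Krt13 at 3.55 CPM against 84.5 CPM, a ratio of 0.042 [0.015–0.092]. Krt75, a keratin of the hair follicle, had 5.33 CPM in NC-Foxc2-/- and 24.1 CPM in control cells, and Krt80 and Krt6b were lower at under 15 CPM. On the higher side, Krt16 had 695 CPM in NC-Foxc2-/- and 349 CPM in control cells, a ratio of 1.99, and Krt6a had 526 and 331 CPM, a ratio of 1.59.

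Clustering at a finer resolution (1.2) rebuilt the limbal class with 99 NC-Foxc2-/- and 293 control cells, of which 94 and 288 were in the class above. It came in 3 parts that the libraries again filled unequally. The part led by Cxcl2 had 82 NC-Foxc2-/- and 84 control cells, that led by Cxcl10 had 6 and 144, and the dividing part led by Ube2c had 11 and 65. The lower level of Krt15 was nearly the same in each, with 2073 CPM in NC-Foxc2-/- and 3934 CPM in control cells of the Cxcl2 part (ratio 0.527), 2886 and 5507 CPM in the Cxcl10 part (0.524), and 2938 and 5298 CPM in the Ube2c part (0.555). Krt7 by contrast had 118 CPM in NC-Foxc2-/- and 156.5 CPM in control cells of the evenly filled Cxcl2 part, a ratio of 0.756 [0.611–0.934]. It reached 944 CPM in control cells of the Cxcl10 part, which NC-Foxc2-/- mice nearly lacked. Krt17 had a ratio of 0.905 in the Cxcl2 part, Krt8 0.733 and Krt19 0.707, all within 2-fold there, while Krt4 (0.384) and Krt13 (0.236, 4 and 16 UMIs) stayed lower. Krt6a was higher in all 3 parts, with ratios of 2.27, 3.20 and 1.56 in the order above. Krt16 was not, with 651 CPM in NC-Foxc2-/- and 563 CPM in control cells of the Cxcl2 part (1.16), a ratio of 0.82 in the Cxcl10 part and 3.81 on 11 NC-Foxc2-/- cells of the Ube2c part. Krt18 had a ratio of 0.632 in the Cxcl2 part and 2.08 in the Ube2c part. Krt12, at a ratio of 0.713 over the class above, had 498 CPM in NC-Foxc2-/- and 1207 CPM in control cells of the Cxcl2 part (0.413). In the Cxcl10 and Ube2c parts it had ratios of 0.124 and 0.118, on 2 and 10 NC-Foxc2-/- UMIs.

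**Figure D3:**
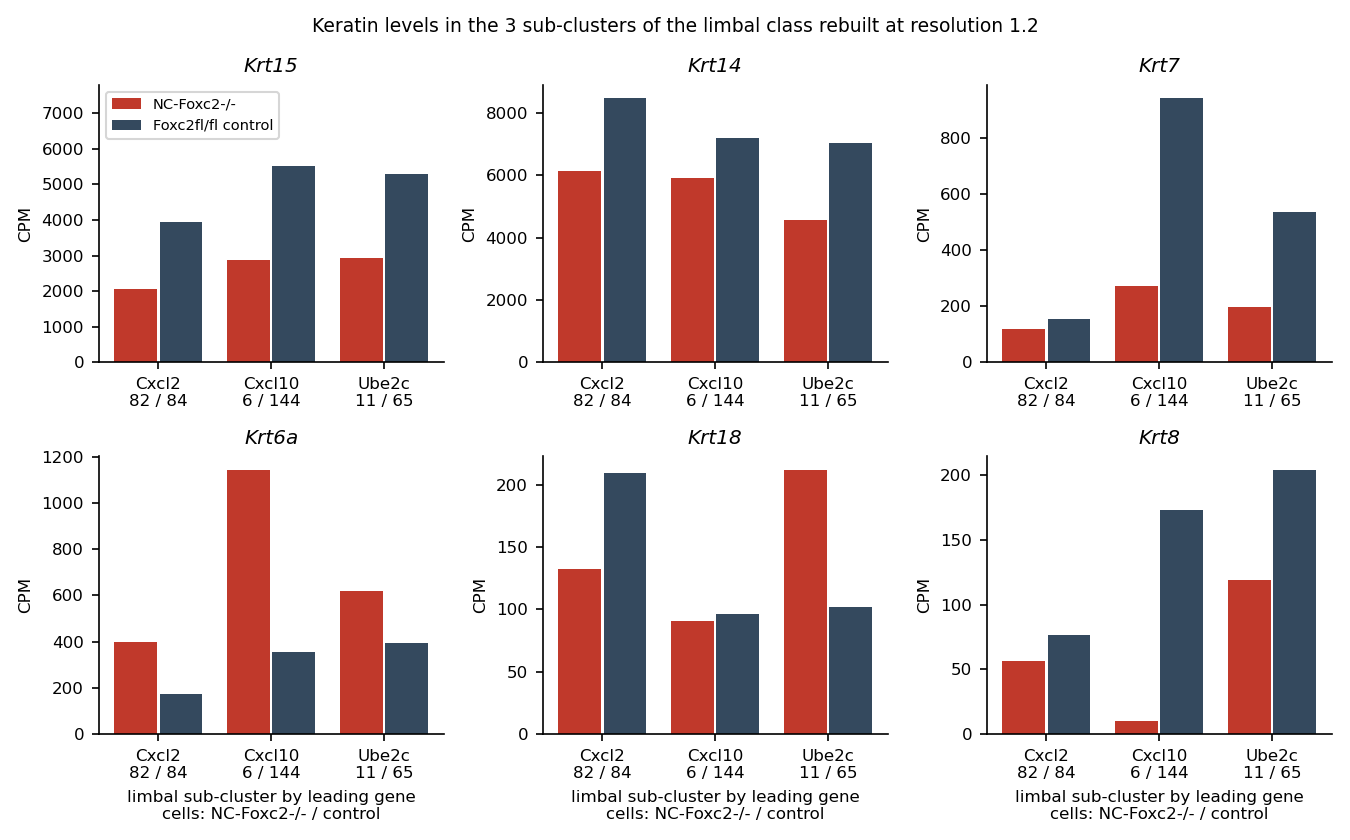
CPM of 6 keratins in the 3 parts of the limbal class rebuilt at resolution 1.2, with NC-Foxc2-/- bars (red) left of control bars (dark) and the cells of each library under the leading gene. Each bar is 1 summed library with no error bar. Krt15 is lower in NC-Foxc2-/- in all 3 parts, and Krt7 differs mainly in the Cxcl10 part, which has 6 NC-Foxc2-/- cells.

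In the corneal-limbal intermediate cells, the class with the most even numbers, 4 of 11 members with at least 50 UMIs were lower by 2-fold or more and 1 was higher, against 2.72% of 5481 genes lower and 1.97% higher. Krt15 had 163 CPM in NC-Foxc2-/- and 697 CPM in control cells, a ratio of 0.234 [0.207–0.264], which is the lowest of the 4 classes. Krt7 had 3.51 CPM in NC-Foxc2-/- and 27.9 CPM in control cells. Here Krt8 and Krt18 were lower together, Krt8 with 21.1 CPM in NC-Foxc2-/- and 51.7 CPM in control cells (ratio 0.408) and Krt18 with 82.8 and 176 CPM (0.47). Krt6a was higher, with 513 CPM in NC-Foxc2-/- and 239 CPM in control cells, a ratio of 2.15 [1.93–2.39]. Krt12 had 6661 CPM in NC-Foxc2-/- and 8805 CPM in control cells, a ratio of 0.756, and Krt5 (1.14), Krt14 (0.762) and Krt16 (1.07) were also within 2-fold.

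The conjunctival class rests on 10 NC-Foxc2-/- cells with 187655 UMIs, against 195 control cells. Of 18 members with at least 50 UMIs, 8 were lower by 2-fold or more and 2 were higher, but 20.8% of 6331 genes were lower and 7.09% higher in this class. Krt8 had 21.3 CPM [5.81–54.6] in NC-Foxc2-/- and 322 CPM [306–338] in control cells. Krt7 had 123 CPM in NC-Foxc2-/- and 933 CPM in control cells, and Krt19 had 432 and 1744 CPM. Krt15 had 7146 CPM in NC-Foxc2-/- and 14310 CPM in control cells, a ratio of 0.499, and Krt4 had 799 and 2138 CPM. Krt75 (ratio 0.057), Krt18 (0.175) and Krt23 (0.216) were lower on 1 to 2 NC-Foxc2-/- UMIs each. Of the 18, Krt12 was the most above 1, with 5132 CPM in NC-Foxc2-/- and 1467 CPM in control cells, a ratio of 3.499. Yet the median cell had 180 CPM of it in NC-Foxc2-/- and 55.1 CPM in control mice, and 1 of the 10 cells held 53.1% of the UMIs. Krt16 had 4119 CPM in NC-Foxc2-/- and 1931 CPM in control cells, and its median cell 2352 and 1085 CPM. Krt13 was at 0 in 6 of the 10 NC-Foxc2-/- cells and 20 of the 195 control cells.

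The 4 classes can be read together by the role of the keratins. Krt15 and Krt7 were lower by 2-fold or more in all 4 classes, though Krt7 in corneal cells rests on 4 and 50 UMIs. For Krt15 the ratio of 0.499 in conjunctival cells lies at the bound, and that in corneal cells was 1.31 without the 2 sub-clusters. The simple keratins as a list (Krt7, Krt8, Krt18, Krt19, Krt20, Krt23) had 2 of 4 measured members lower in corneal, 3 of 3 in intermediate, 3 of 4 in limbal and 5 of 5 in conjunctival cells, with 0 higher in each. Over all genes 3.89%, 2.72%, 8.61% and 20.8% were lower in these classes, and the conjunctival count rests on 10 NC-Foxc2-/- cells. The 3 limbal calls, Krt7, Krt8 and Krt19, were within 2-fold in the evenly filled Cxcl2 part, at 0.756, 0.733 and 0.707. In corneal cells Krt19 was at 0.503 in sums weighted as in the control. The stress keratins as a list (Krt6a, Krt6b, Krt16, Krt17) had a median ratio of 0.549 in corneal, 1.07 in intermediate, 1.06 in limbal and 1.44 in conjunctival cells. Of them, 1 of 4 was lower in corneal and in limbal cells. In intermediate cells 1 of 3 was higher, and in conjunctival cells 1 of 4. In corneal sums weighted as in the control, Krt6a was at 0.983, Krt16 at 0.888, Krt17 at 0.888 and Krt6b at 0.435. The epidermal keratin Krt10 was within 2-fold in every class, at 12.04 to 48.0 CPM over the NC-Foxc2-/- classes and 15.8 to 30.8 CPM over the control classes. Krt20 and Krt222 had 2.29 CPM or less in each of the 4 classes.

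Genes that act with keratins were read in the same sums. Dsp, Perp, Dsg1a, Dsc2, Col17a1, Itgb4, Lamb3, Trp63, Elf3 and Pax6 had also served as markers for the names. The shares of all genes to read the counts against are those above, with 3.89% lower and 3.04% higher in corneal, 8.61% and 2.25% in limbal, 2.72% and 1.97% in intermediate, and 20.8% and 7.09% in conjunctival cells. Of 23 desmosome and hemidesmosome genes, which anchor keratin filaments to the cell border, 2 of 22 measured were lower and 0 higher in corneal cells, with a median ratio of 0.989. In limbal cells 0 of 20 passed 2-fold, in intermediate cells 2 of 19 were higher, and in conjunctival cells 3 of 22 were higher and 3 lower. Dsg1a, a cadherin of upper cell layers, had 33.2 CPM in NC-Foxc2-/- and 69.4 CPM in control corneal cells. At the other end, Col17a1, a hemidesmosome collagen, had 1295 CPM in NC-Foxc2-/- and 755 CPM in control corneal cells, a ratio of 1.72. Of the cornified envelope and barrier genes, 5 of 12 measured were lower and 1 higher in corneal cells, and 3 of 10 were lower and 3 higher in limbal cells. Sprr1b, an envelope protein, had 2.57 CPM in NC-Foxc2-/- and 33.5 CPM in control corneal cells. In limbal cells Sprr1a had 220 CPM in NC-Foxc2-/- and 895 CPM in control mice, whereas S100a9 had 227 and 56.9 CPM and Cnfn 30.8 and 3.99 CPM. In the remaining classes 1 of 6 of these genes was higher in intermediate cells, and 1 of 9 was higher and 1 lower in conjunctival cells.

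Of the epithelial transcription factors, 1 of 14 measured was lower in corneal cells, 0 of 10 in intermediate and 0 of 12 in limbal cells, while in conjunctival cells 3 of 12 were higher and 1 was lower. Klf4, which acts in corneal epithelial differentiation, had 430 CPM in NC-Foxc2-/- and 842 CPM in control corneal cells, a ratio of 0.511, and 333 and 570.5 CPM in limbal cells. Pax6, the eye master regulator that is known to act on Krt12, had 111 CPM in NC-Foxc2-/- and 76.0 CPM in control corneal cells, a ratio of 1.46. Trp63, the factor of basal layers, was at ratios of 0.887 to 1.22 over the 4 classes. Of other intermediate filament genes, 0 of 6 passed 2-fold in corneal and 0 of 4 in limbal cells, 1 of 4 was higher in intermediate cells (Vim, 22.1 CPM in NC-Foxc2-/- and 10.1 CPM in control cells) and 1 of 3 was lower in conjunctival cells (Lmnb1, on 2 NC-Foxc2-/- UMIs).

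In several classes outside epithelium Krt18 was found with little or no Krt8, its partner. Krt12 served as the measure of free epithelial RNA, since these cells should lack it. In the classes other than epithelium a Krt12 UMI was seen in 4.28% of NC-Foxc2-/- TM-2 cells (median 4116 UMIs per cell) and 26.3% of control TM-2 cells (median 4719), a class with nearly no Krt18. Epithelium held 0.00776 Krt18 UMIs per Krt12 UMI in the NC-Foxc2-/- and 0.00446 in the control library. By contrast the trabecular meshwork cells that the study names TM-3 held 3.67 and 5.88 Krt18 UMIs per Krt12 UMI, corneal endothelial-like cells 9.33 and 11.03, retina-like cells 19.8 and 3.40, and smooth muscle-like cells 18.96 and 12.2. At the ratio of epithelium, free RNA would give 1.53 Krt18 UMIs in TM-3 of either library, where 722 were counted in NC-Foxc2-/- and 2018 in control cells.

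Outside epithelium Krt18 was highest in the same 5 classes in both libraries, though in a different order. Corneal endothelial-like cells had 227 CPM in 9 NC-Foxc2-/- cells and 521 CPM in 168 control cells, where 77.8% and 92.9% of cells had a UMI. Smooth muscle-like cells, with Krt18 in 33.3% of 273 NC-Foxc2-/- and 50.3% of 547 control cells, had 248.5 CPM [227–272] and 509 CPM [487–532], and 13.8% and 22.2% of cells had it after thinning to 1000 UMIs. Retina-like cells had 320 CPM [265–383] in NC-Foxc2-/- and 325 CPM [252–412] in control mice, with overlapping intervals. TM-3 had 96.9 CPM [89.96–104] in 1142 NC-Foxc2-/- cells and 322 CPM [309–337] in 852 control cells, with Krt18 in 4.97% and 14.7% of cells after thinning. Melanocyte-like cells had 498.5 CPM in NC-Foxc2-/- and 225 CPM in control mice. Uveal meshwork cells had 26.4 CPM in NC-Foxc2-/- and 58.7 CPM in control mice, macrophage-like cells 7.41 and 18.8 CPM, NK/T/B cell-like cells 2.01 and 22.7 CPM, and fibroblasts 2.18 and 8.73 CPM. TM-1, TM-2, keratocyte-like, pericyte-like, Schwann cell-like, erythrocyte-like and both vessel endothelial classes had under 5 CPM in both libraries. Within a class Krt18 was uneven from cell to cell. The tenth of TM-3 cells with most Krt18 held 95.4% of its UMIs in NC-Foxc2-/- and 79.5% in control mice, and the most in 1 cell was 62 and 90 UMIs. In the uveal meshwork under 10% of cells held 100% of the Krt18 UMIs in both libraries, and single cells held 24 of the 91 NC-Foxc2-/- and 64 of the 348 control UMIs.

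**Figure D4:**
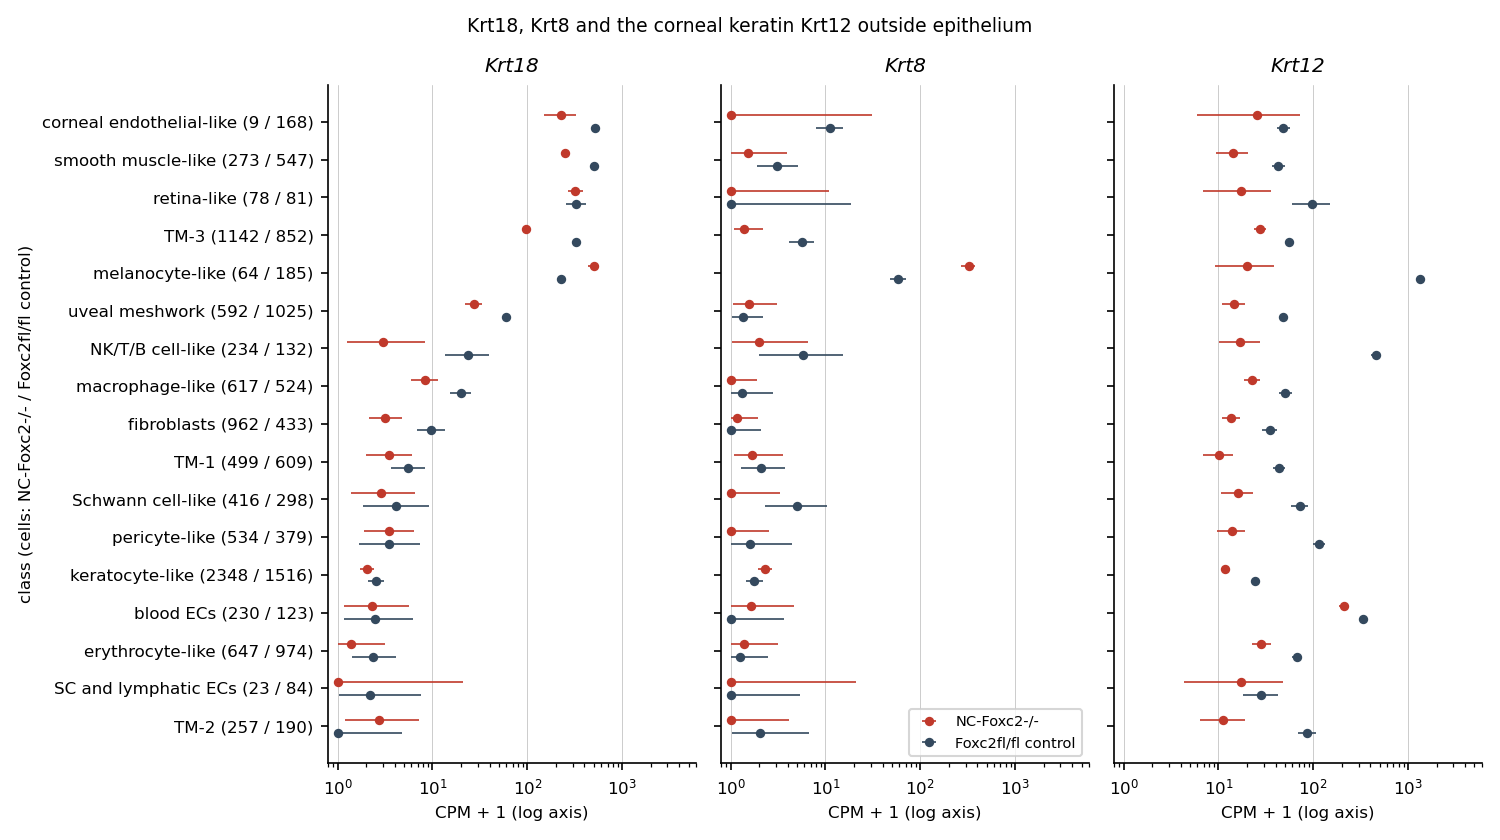
Krt18, Krt8 and Krt12 levels (CPM + 1, log axis) in the classes outside epithelium, with NC-Foxc2-/- (red, above) and Foxc2fl/fl control (dark, below) as points, exact Poisson 95% intervals as lines, and the cells of each library beside the class. Krt18 stands at 227 to 521 CPM in the corneal endothelial-like and smooth muscle-like classes while Krt8 stays at or under 10.2 CPM in both, and Krt12 is spread over all classes.

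Between the libraries Krt18 was lower in NC-Foxc2-/- by 2-fold or more in TM-3, where 2.29% of 10225 genes were lower. The ratio was 0.301 [0.276–0.327]. In smooth muscle-like cells it was 0.488 [0.441–0.540], where 1.94% of 8299 genes were lower, and in the uveal meshwork it was 0.449 [0.353–0.567], where 1.49% of 9338 genes were lower. In corneal endothelial-like cells it was 0.435 [0.289–0.632] on 9 NC-Foxc2-/- cells, where 16.5% of 6768 genes were lower. In macrophage-like cells it was 0.394 [0.245–0.623] on 30 and 58 UMIs, where 3.37% of 8327 genes were lower. In retina-like cells it was 0.986 [0.726–1.35].

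TM-3 was made up differently in the libraries. Its part in the cluster led by Myoc, the myocilin gene of trabecular meshwork, had 600 NC-Foxc2-/- and 679 control cells, and Krt18 at 154 and 383 CPM, a ratio of 0.403 [0.369–0.439]. Its part in the cluster led by Cilp2 had 391 NC-Foxc2-/- and 110 control cells, and Krt18 at 3.53 CPM and 0 CPM. Markers of corneal endothelium (Slc4a11, Car3, Npy, Col8a2, Cldn10) summed to 766 CPM in NC-Foxc2-/- and 1729 CPM in control TM-3, with none of the 5 at 0. Cells with no UMI of these genes, 389 in NC-Foxc2-/- and 126 in control mice, had Krt18 at 7.88 CPM [4.31–13.2] and 6.80 CPM [1.85–17.4], a ratio of 1.16 [0.364–4.83] on 14 and 4 UMIs. Only 50 and 27 of these cells lay in the Myoc cluster, with Krt18 at 33.1 and 25.4 CPM on 8 and 4 UMIs. In that cluster 550 NC-Foxc2-/- and 652 control cells had a UMI of a marker, so the split mostly leaves the cluster out. Cells of TM-3 with such a UMI, 753 and 726, had 125 and 355 CPM. In smooth muscle-like cells the markers summed to 101 CPM in NC-Foxc2-/- and 206 CPM in control mice. The smooth muscle-like cells with none of them had Krt18 at 230 and 538 CPM, a ratio of 0.428. The part of corneal endothelial RNA in the Krt18 ratios of TM-3 and smooth muscle-like cells was not tested.

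Krt8 was at or near 0 in nearly all of these classes. TM-3 had 3 Krt8 UMIs in NC-Foxc2-/- and 29 in control cells against 722 and 2018 of Krt18, smooth muscle-like cells had 1 and 8, and retina-like cells had 0 in both, which allows up to 8.07 and 14.3 CPM at a floor of 3 UMIs. Corneal endothelial-like cells had 0 in NC-Foxc2-/- and 10.2 CPM in control mice. Keratocyte-like cells had 47 and 19 UMIs of Krt8 beside 37 and 39 of Krt18. Melanocyte-like cells were the 1 class with over 11 CPM of Krt8, with 321 CPM in NC-Foxc2-/- and 57.3 CPM in control mice, and here 2 of 11 keratins, Krt8 and Krt18, were higher by 2-fold or more and 8 were lower, where 7.17% of 5674 genes were higher and 10.2% lower. The class was made up differently in the libraries, with melanocyte markers at 5072 CPM in NC-Foxc2-/- and 25600 CPM in control cells, and markers of ciliary epithelium at 10920 and 5017 CPM, none of either list at 0. A single NC-Foxc2-/- cell held 92 of the 134 Krt8 UMIs and 101 of the 208 Krt18 UMIs, and the share of cells with Krt8 was 17.2% in NC-Foxc2-/- and 17.3% in control mice. Thinned to 1000 UMIs a cell, the Krt18 ratio turned to 0.749 [0.363–1.43]. Both keratins lay in the cells with at least 2 markers of pigment or ciliary epithelium, 43 in NC-Foxc2-/- and 79 in control mice, where Krt8 had 422 and 120 CPM and Krt18 655 and 455 CPM. The cells with fewer, 21 and 106, had Krt18 at 0 and 32.7 CPM. The control melanocyte-like class also held epithelial RNA, with Krt12 at 1327 CPM against 19.2 CPM in NC-Foxc2-/- cells. At the ratio of epithelium this would bring 425 UMIs of Krt15 and 701 of Krt14 to the control cells, where 458 and 750 were counted, and 10.6 of Krt18, where 405 were. Krt12 was seen in 34.2% of the 79 control cells with at least 2 of the markers and in 27.4% of the 106 with fewer. General epithelial markers summed to 213 CPM in NC-Foxc2-/- and 1318 CPM in control cells. Whether free RNA or whole epithelial cells brought this RNA was not tested. The part of the make-up of the class in its Krt8 and Krt18 levels was not tested.

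Over 34 points, 1 for each class and library outside epithelium, the genes whose log2(CPM + 1) was most like that of Krt18 were Klc3 (Pearson correlation 0.881), Cxadr (0.863), Ric3 (0.838), Prune2 (0.837) and Sv2a (0.836) among 13997 genes with at least 100 UMIs there. Krt8 had a correlation of 0.46 with Krt18 and Krt12 one of 0.128. The points share their library and its free RNA, so these are descriptions. Other intermediate filament genes were measured in TM-3 too. There 1 of 9 was higher and 2 lower by 2-fold or more, against 3.64% of all genes higher and 2.29% lower. Nefl, a neurofilament gene, had 26.2 CPM in NC-Foxc2-/- and 67.1 CPM in control TM-3, Nefm had 37.98 and 80.1 CPM, and Synm, which encodes synemin, had 8.46 and 2.56 CPM. Of the lists above, desmosome genes had 0 of 11, transcription factors 0 of 5 and barrier genes 3 of 6 past 2-fold in TM-3. All 3 barrier genes were higher. Among them, S100a8 had 28.7 CPM in NC-Foxc2-/- and 3.20 CPM in control cells. S100a9 had 38.5 and 0.32 CPM, on 287 and 2 UMIs.

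Of the other keratins outside epithelium, a few had values of their own in single classes. The epidermal keratin Krt10 had 19.99 CPM in NC-Foxc2-/- and 18.98 CPM in control keratocyte-like cells. It was higher in the NC-Foxc2-/- uveal meshwork, with 26.9 CPM against 11.1 CPM in control mice, a ratio of 2.42 [1.75–3.37], where 2.06% of genes were higher. In fibroblasts it was lower, with 32.4 CPM in NC-Foxc2-/- and 80.98 CPM in control mice, a ratio of 0.40 [0.330–0.482]. Fibroblasts of control mice also held other simple keratins, and 4 of 7 keratins, Krt10, Krt20, Krt19 and the free RNA measure Krt12, were lower there in NC-Foxc2-/- mice, where 6.09% of 9218 genes were. Krt20, a keratin of intestine and urothelium, had 1.34 CPM in NC-Foxc2-/- and 29.2 CPM in control fibroblasts, a ratio of 0.046 [0.019–0.094]. Krt19 had 8.88 CPM in NC-Foxc2-/- and 38.8 CPM in control fibroblasts, and Krt23 had 1.68 and 10.8 CPM on 10 and 36 UMIs. At the ratio of epithelium free RNA would bring 0.125 and 1.80 UMIs of Krt19 to these cells, where 53 and 129 were counted. In keratocyte-like cells 4 of 12 keratins were lower, where 1.16% of 12056 genes were. Among them is Krt12, the free RNA measure itself. Krt15 had 23 NC-Foxc2-/- and 81 control UMIs, where free RNA would bring 30.6 and 104. Krt6a had 30 and 52, where it would bring 27.4 and 39.96. The part of free RNA in these ratios was not tested. The fourth, Krt1, had 22 UMIs in NC-Foxc2-/- and 38 in control cells. Krt222 had 222 UMIs in all, most of them in keratocyte-like cells, at 1.84 CPM in NC-Foxc2-/- and 2.71 CPM in control mice.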

How the data were processed

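The authors deposited, per library, counts of UMIs per gene and barcode made with Cell Ranger 4.0.0 on mm10 from 10x 3′ v3.1 libraries, and a second table of counts of both libraries. Cells were kept up to a limit of 8% mitochondrial UMIs. Fibroblasts, vessel endothelium, the uveal meshwork and the meshwork classes TM-1 to TM-3 carry the study's names, joined from its source data for 98.5% to 100% of listed cells. Other cells were clustered with scanpy 1.11.5 and leidenalg 0.10.2 on 2320 variable genes without keratins, 15 principal components, 25 neighbors and resolution 0.8, and epithelial cells were clustered again in the same way. The rules that turn markers into names were set after the clusters were seen. A cluster stays unnamed where 25% or more of its cells are Scrublet doublets, where it is shallow or where its markers are too few, and unnamed cells enter no comparison. Doublets elsewhere were kept. The libraries held 94644512 NC-Foxc2-/- and 119599692 control UMIs, and depth sets the width of every interval.

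The keratins, gene lists and tests were chosen with earlier results of these data known. Every keratin with at least 100 UMIs over both libraries is described. Of the related lists, the rule named the 2 highest and 2 lowest ratios per class among genes with at least 50 UMIs. Only some of these are printed, chosen after their values were seen, and the rest stand in the counts. No 2 groups were tested, since each has 1 library. The rule of 2-fold and 50 UMIs was tested on simulated data. Counts are of molecules and are not scaled by gene length, so levels of different genes are compared only as UMIs. On the opposite strand, 9 of the described keratins overlap another gene, and the sources used here do not give the strand setting or annotation release of the counting. The alternatives were clustering with keratins, resolutions 0.4 and 1.2, a 5% mitochondrial limit, no doublets, thinning, other scalings and other UMI minimums. Others, named in the text, were chosen after the data were seen.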

Additional observations from a re-analysis of the deposited data

Results flagged for a closer look

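Of the keratins past the 2-fold rule, 6 were higher in the NC-Foxc2-/- library in 1 class and lower by 2-fold or more in another. Each interval was clear of 1. The share of all genes with this pattern was not computed, so the count is not a result about keratins. In the single classes named here, 1.97% to 7.17% of all genes were higher and 1.16% to 20.8% lower. With 1 library per condition none of these differences between classes was tested. Krt8 had a ratio of 5.61 in melanocyte-like cells, where a single cell held most of the NC-Foxc2-/- UMIs. Its ratio of 0.066 in conjunctival epithelial-like cells rests on 4 NC-Foxc2-/- UMIs. Krt12 had a ratio of 3.499 in conjunctival epithelial-like cells, on 10 NC-Foxc2-/- cells with most of the UMIs in a single cell. It had a ratio of 0.014 in melanocyte-like cells, where free RNA and RNA of whole epithelial cells were not told apart. Krt10 had a ratio of 2.42 in the uveal meshwork, with 26.9 CPM in NC-Foxc2-/- and 11.1 CPM in control mice, and 0.40 in fibroblasts, with 32.4 and 80.98 CPM. Krt18 had a ratio of 2.21 in melanocyte-like cells, which turned in direction when cells were thinned to 1000 UMIs. Its ratio of 0.175 in conjunctival epithelial-like cells rests on 2 NC-Foxc2-/- UMIs. Krt6a had a ratio of 2.15 in corneal-limbal intermediate cells and 0.404 in keratocyte-like cells. There it had 30 NC-Foxc2-/- and 52 control UMIs, where free epithelial RNA would bring 27.4 and 39.96. Krt16 had a ratio of 2.13 in conjunctival epithelial-like cells and no UMI in NC-Foxc2-/- melanocyte-like cells. Control melanocyte-like cells had 108 CPM of it, or 194 UMIs where epithelial RNA at the ratio to Krt12 would bring 272.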

How the results depend on the processing

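The alternatives were run for 56 keratin ratios past 2-fold in the 4 epithelial classes and in TM-3, uveal meshwork, smooth muscle-like, corneal endothelial-like, melanocyte-like, macrophage-like, retina-like and keratocyte-like cells and fibroblasts, and for the ratios of Krt12, Krt15 and Krt18 given further on. The calls in the remaining classes, all of Krt12, Krt14 or Krt5, and ratios with no UMI in a library were not recomputed. For the 56, 417 of 424 values kept their direction. Direction here is only the side of 1. Corneal Krt78, at 0.148 in the main sums and 0.988 when weighted, thus counts as kept. The 7 that turned were, without the 2 corneal sub-clusters of under 10 cells of a library, Krt13 (1.15) and Krt15 (1.31), in sums weighted as in the control Krt80 (1.49) and Krt75 (1.41), all in corneal cells, in melanocyte-like cells Krt18 when thinned (0.749), and Krt14 and Krt5 without cells with a Krt12 UMI (1.14 each). The Krt12 level in corneal cells, 13000 CPM in NC-Foxc2-/- and 23080 in control mice, was 11690 and 22520 with keratins in the clustering (ratio 0.519), 11400 and 22090 at resolution 0.4 (0.516), 12170 and 22930 at resolution 1.2 (0.531), 12780 and 22720 in thinned cells, 11100 and 21920 with the intermediate cells added (0.507), and 12490 and 19190 without the 2 sub-clusters (0.651). Weighted as in the control, the ratio was 0.664. The count of keratins lower in corneal cells, 10, was 2 in thinned cells, where fewer reach 50 UMIs, 5 at a minimum of 200 UMIs, 1 without the 2 sub-clusters and 5 when weighted. In limbal cells it was 4 in thinned cells instead of 9. The Krt15 ratio in limbal cells, 0.448, was 0.358 with keratins in the clustering, 0.419 at resolution 0.4, 0.489 scaled by the median gene and 0.465 when weighted. The Krt18 ratio in TM-3, 0.301, was 0.331 without cells with a Krt12 UMI and 0.403 in the Myoc cluster. It was 1.16 without cells with a corneal endothelial marker, a setting that also leaves out most of the Myoc cluster. In smooth muscle-like cells the Krt18 ratio, 0.488, ran between 0.467 and 0.504. Size was less stable than direction. A value stayed if it lay in the counting interval of the main value or, for a count of keratins, within 1.5-fold. For the Krt12, Krt15 and Krt18 results and the corneal and limbal counts above, 46 values stayed, 29 moved and 1 turned. For the 56 ratios and the other counts, 399 stayed, 72 moved and 7 turned. Other causes were not tested. No paired analysis was possible because each condition has 1 library, and for the same reason no replicate could be left out.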

Other observations

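A sub-cluster of 7 NC-Foxc2-/- and 12 control epithelial cells, led by Psca and Lce3a and left unnamed because it held only 1 of 7 general epithelial markers at the required level, had a keratin profile of its own. It held Krt6b at 3911 CPM in NC-Foxc2-/- and 4543 CPM in control cells, Krt7 at 1067 and 3497 CPM, Krt13 at 1860 and 1875 CPM, Krt80 at 778 and 362 CPM, and Krt23 at 800.5 and 233 CPM, with Krt5 at 107 and 198 CPM. In the 4 named epithelial classes Krt80 was at most 79.9 CPM and Krt23 at most 49.5 CPM.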
